A study of Mus musculus with 6 samples.

Results

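Described here are 10 genes of Wnt signalling, namely the ligand gene Wnt7a, 6 genes of feedback inhibitors (Axin2, Nkd1, Notum, Rnf43, Znrf3 and Dkk1), the receptor gene Lgr5 and the transcription factor genes Lef1 and Tcf7. Their transcripts were compared between mouse pancreatic tumours with and without the RNA-binding protein Musashi 1, the product of Msi1. The members were listed by symbol, and a gene was measured where a probe set of the array was annotated to that gene alone. That held for 9 of the 10, out of 18193 genes on the array, with 19 probe sets in all. Each gene was read from its probe set of highest mean over the 6 arrays, and Tcf7 was not analysed here.

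The samples were tumour cells of the pancreas, taken from C57BL/6 mice aged 11 weeks. All samples carried the tumour alleles that the labels spell KeasG12D/+ and p53f/f, together with ptf1a-Cre, whose promoter is active in the pancreatic lineage. Of the 6 RNA samples, 3 had the genotype Msi1 -/- (Msi1 KO) and 3 were labelled wt, a term that refers to Msi1 only. The labels name no Cre-dependent Msi1 allele and do not state that the samples are separate animals, so the p-values reflect the spread among these RNA samples, which may be technical. The design text also describes fluorescent Msi reporter alleles, and whether the Msi1 -/- samples carry one is not stated. Each RNA was hybridised to 1 Affymetrix mouse array. Values are the intensities the authors deposited, on a linear scale, and differences are Msi1 KO minus wt on the log2(intensity + 1) scale.

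Wnt proteins are secreted lipid-modified ligands that bind Frizzled and Lrp receptors. Binding stops a destruction complex from degrading β-catenin, which then enters the nucleus and activates genes together with Lef1, Tcf7 and the related TCF factors. Many of the activated genes encode inhibitors of the same pathway, so transcripts such as Axin2 are used as readouts of Wnt activity. In normal adult pancreas the pathway is largely quiet, and it is used again in regeneration and in pancreatic tumours.

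The targeted gene gave no check of the labels. At its brightest probe set, 1452287_at, Msi1 read 141, 168 and 127 in Msi1 KO arrays and 144, 150 and 257 in wt arrays. The background of an array, the 95th percentile of 80 olfactory and vomeronasal receptor probe sets, lay between 163.0 and 191.8, and 1 Msi1 KO value and 1 wt value of this probe set lay above it. Its position relative to the deleted part of the gene was not known here. Wt replicate 3 stood apart in Xist, the transcript of the inactive X chromosome, at 6226, against between 131 and 186 in Msi1 KO arrays and 376 and 387 in the other wt arrays. Differences that moved by over 1.5 times without 1 array are given both ways, singly or as a range, for the 9 measured genes and for other genes where stated.

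Sequence before the annotated transcription start is shown for 3 of the genes, because Wnt7a was the member whose genotypes separated, Axin2 is the usual readout of the pathway and Dkk1 was the only member with a match to the motif searched. Of the 10 genes, 7 had an entry in the promoter table (RefSeq, GRCm38.p6), with 12 annotated starts. The 250 bases before each start were searched on both strands for CTTTGAA and CTTTGAT, sequences bound by TCF and LEF factors that share their first 6 letters but cannot match the same 7 bases. Either motif was present in 1 of the 12 windows, and in 7.48% of all 32851 windows of this length. The sequences run 5′ to 3′ on the gene's strand up to the base before the start, and capitals mark the motif. The Wnt7a window is chr6:91411354-91411603 (minus strand), that of Axin2 chr11:108920099-108920348 (plus strand) and that of Dkk1 chr19:30549497-30549746 (minus strand).
Wnt7a: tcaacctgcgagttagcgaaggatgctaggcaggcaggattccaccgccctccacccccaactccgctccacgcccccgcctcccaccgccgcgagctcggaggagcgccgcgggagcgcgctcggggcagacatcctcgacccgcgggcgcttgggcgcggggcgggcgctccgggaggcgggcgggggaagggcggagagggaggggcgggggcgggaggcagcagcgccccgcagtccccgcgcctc
Axin2: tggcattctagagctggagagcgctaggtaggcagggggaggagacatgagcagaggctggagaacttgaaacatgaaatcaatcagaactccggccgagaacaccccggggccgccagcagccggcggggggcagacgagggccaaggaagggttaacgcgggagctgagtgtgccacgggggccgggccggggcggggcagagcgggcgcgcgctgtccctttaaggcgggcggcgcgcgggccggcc
Dkk1: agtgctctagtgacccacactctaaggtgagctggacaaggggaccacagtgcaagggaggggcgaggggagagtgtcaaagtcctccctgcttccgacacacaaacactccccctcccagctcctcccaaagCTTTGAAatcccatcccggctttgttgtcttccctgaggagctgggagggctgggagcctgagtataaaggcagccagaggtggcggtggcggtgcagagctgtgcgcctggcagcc
The match in Dkk1 spans bases 117 to 111 before the start. No match in a window says only that these letters do not occur in it.

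None of the 9 measured genes passed the test between the genotypes. With limma fitted on all probe sets, 0 of 9 had a Benjamini-Hochberg adjusted p under 0.05, as did 0.0% of the 45037 probe sets tested, and the smallest adjusted p among the 9 was 0.9997. At an unadjusted p under 0.05 there was 1 of 9, Wnt7a, lower in Msi1 KO arrays, against 1.85% of all 18193 genes in that direction and 3.01% of all probe sets in either. Means were lower in Msi1 KO arrays for 7 of the 9 genes, against 49.7% of all genes. The 7 include Dkk1, which differed by -0.0 and was below background on all 6 arrays, so its sign is not informative. Dkk1 is also counted in the median that follows. The median log2 difference of the 9 genes was -0.13, against 0.001 over all genes, whose 5th and 95th percentiles were -0.23 and 0.21. The 9 genes spanned -0.50 to 0.08. With 3 arrays a genotype the exact two-sided permutation test over arrays cannot go below p = 0.1.

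**Figure D1:**
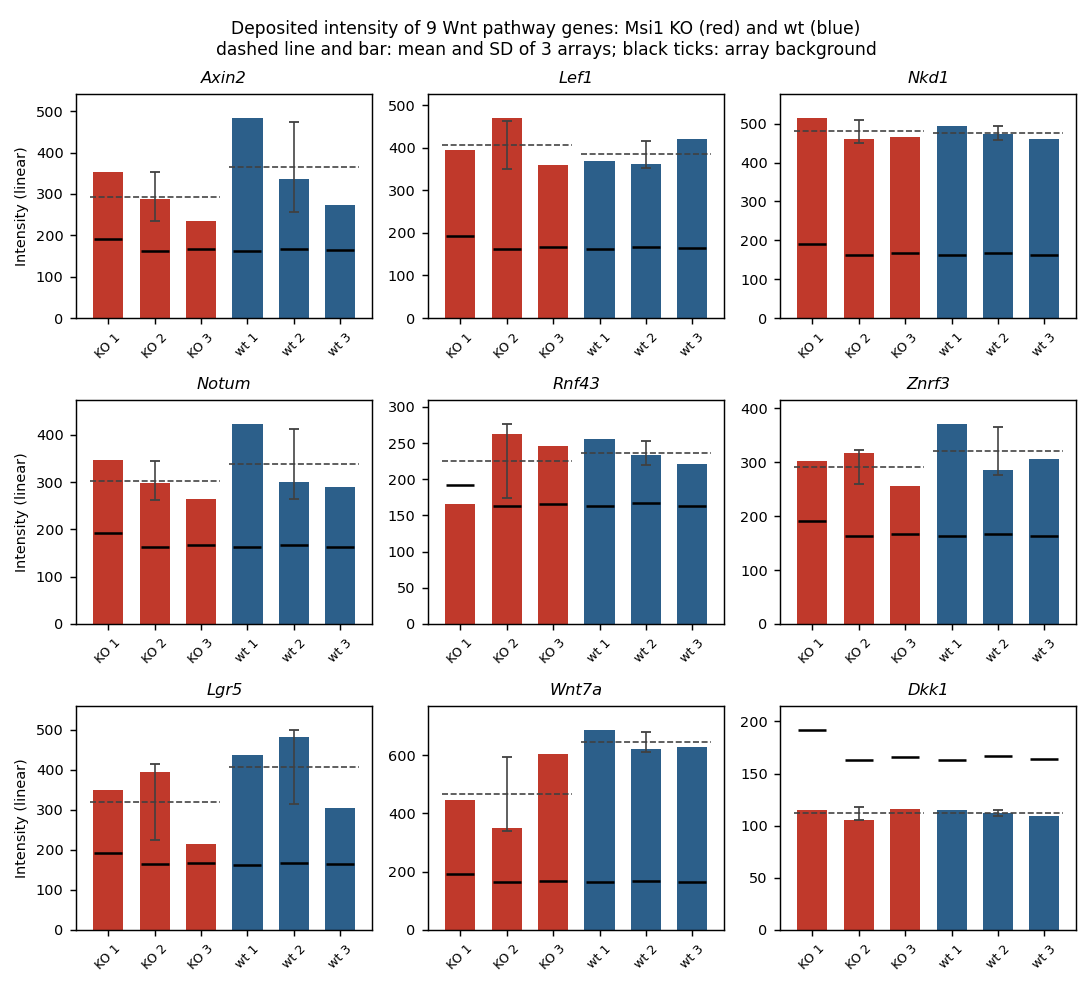
Deposited intensity (linear y axis) of 9 Wnt pathway genes in each array, Msi1 KO replicates 1 to 3 in red and wt replicates 1 to 3 in blue, with the mean and SD of each genotype (dashed line and bar) and the background of each array (black ticks). The Wnt7a bars of all 3 Msi1 KO arrays are below the wt bars, the genotypes overlap for the other 8 genes, and all Dkk1 bars lie below background.

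Wnt7a, the ligand of the set, showed the largest difference of the 9 genes. It encodes a Wnt ligand of epithelia and neurons. Its intensity was 447, 351 and 603 in Msi1 KO arrays, against 687, 621 and 630 in wt arrays. The wt arrays lay close together, the Msi1 KO arrays were spread, and the genotypes did not overlap, Msi1 KO replicate 3 coming closest to the wt range. Msi1 KO below wt without overlap was found for 4.28% of all genes, and Wnt7a was the 1 such gene among the 9. The means were 467 ± 127 in Msi1 KO and 646 ± 35.5 in wt arrays (SD, n = 3 each), a ratio of 0.72 and a log2 difference of -0.50 ± 0.19 (SE, 95% interval -0.95 to -0.06). The unadjusted limma p was 0.0316 and the adjusted p 0.9997 (exact two-sided permutation p = 0.1). Without Msi1 KO replicate 2, the lowest array, the difference was -0.31.

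The other probe sets of Wnt7a did not show this difference. Probe set 1447647_at read 216, 183 and 188 in Msi1 KO arrays and 192, 182 and 186 in wt arrays, a log2 difference of 0.07 ± 0.08 (SE). It was above background on all 6 arrays but close to it (163.0 to 191.8), which limits the difference it could show. The third, 1458334_at, lay below background on every array and differed by 0.03 ± 0.04. Averaged over its 3 probe sets, with those near and below background included, Wnt7a differed by -0.14 on the log2 scale.

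Lgr5, the R-spondin receptor that marks Wnt-driven stem cells of the intestine, read 350, 395 and 213 in Msi1 KO arrays and 437, 481 and 304 in wt arrays. Replicate 3 was the lowest array within each genotype, and the genotypes overlapped. The means were 319 ± 94.6 in Msi1 KO and 407 ± 92.1 in wt arrays (SD, n = 3 each), and the log2 difference was -0.37 ± 0.26 (SE, 95% interval -0.98 to 0.24, exact permutation p = 0.4). Without Msi1 KO replicate 3 the difference was -0.10, and without wt replicate 2 it was -0.24. Without wt replicate 3 it was -0.57, and the genotypes then did not overlap. The second probe set of Lgr5 was below background on all arrays.

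Lgr5 had the widest range of the 7 members above background on all arrays, 1.17 on the log2 scale, and its profile over the 6 arrays was compared with those of 10920 other genes above background. The 5 nearest, by root mean square difference of the mean-centred log2 values, were Cyp26a1 (0.148), an enzyme that degrades retinoic acid, Lrg1 (0.19), a secreted leucine-rich glycoprotein, Phpt1 (0.19), a phosphohistidine phosphatase, Edn1 (0.207), the endothelin 1 precursor, and Fam124a (0.208). Cyp26a1 read 421, 453 and 305 in Msi1 KO arrays and 494, 488 and 351 in wt arrays, with replicate 3 the lowest in each genotype as for Lgr5. With 6 arrays and this many genes some profiles are close to any gene.

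Axin2, a scaffold of the destruction complex and a direct β-catenin target, read 354, 289 and 235 in Msi1 KO arrays and 483, 336 and 274 in wt arrays. Replicate 1 was highest and replicate 3 lowest in each genotype. The means of 293 ± 59.2 in Msi1 KO and 365 ± 108 in wt arrays (SD, n = 3 each) gave a log2 difference of -0.30 ± 0.23 (SE, 95% interval -0.83 to 0.24, exact permutation p = 0.5). Without wt replicate 1 the difference was -0.07, without Msi1 KO replicate 3 it was -0.15 and without wt replicate 3 it was -0.48. The second probe set of Axin2, below background throughout, differed by -0.02.

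The secreted and membrane-bound feedback inhibitors differed less than their spread. Notum, a secreted enzyme that removes the lipid from Wnt proteins, read 346, 298 and 265 in Msi1 KO arrays and 423, 301 and 290 in wt arrays. The log2 difference of Notum was -0.15 ± 0.17 (SE), and 0.03 without wt replicate 1, the highest array. It was -0.25 without Msi1 KO replicate 1 and -0.05 without Msi1 KO replicate 3. Without wt replicate 2 it was -0.22, and without wt replicate 3 it was -0.24. Znrf3, a ubiquitin ligase that removes Frizzled receptors from the cell surface, read 303, 317 and 257 in Msi1 KO arrays and 371, 285 and 306 in wt arrays, a difference of -0.13 ± 0.13 that was -0.02 without wt replicate 1, -0.04 without Msi1 KO replicate 3 and -0.21 without wt replicate 2. Both had their highest array in wt replicate 1 and their lowest in Msi1 KO replicate 3.

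Rnf43 is the paralogous ligase and is often mutated in human pancreatic cancers that depend on Wnt ligands. It read 166, 262 and 246 in Msi1 KO arrays and 255, 233 and 221 in wt arrays, so that Msi1 KO replicate 1 was the lowest array, below its background of 191.8, while the other Msi1 KO arrays lay within or above the wt range. The log2 difference was -0.10 ± 0.17 (SE) with all arrays and 0.11 without Msi1 KO replicate 1. Rnf43 and Znrf3 thus did not share an order of arrays.

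Nkd1, an inhibitor that binds Dishevelled, had nearly equal means in both genotypes. It read 514, 460 and 466 in Msi1 KO arrays and 495, 474 and 460 in wt arrays, a log2 difference of 0.01 ± 0.10 (SE, 95% interval -0.21 to 0.23). Its other 3 probe sets differed by -0.07, 0.05 and 0.03. The last 2 read between 165 and 208, close to background, which limits the difference they could show. The interval of this brightest Nkd1 probe set leaves out a log2 difference as low as those of Axin2 and Lgr5. That of probe set 1429506_at, also above background on all 6 arrays, was -0.39 to 0.25 and includes them. Dkk1, a secreted antagonist of the Lrp receptors, read between 105 and 116 in Msi1 KO arrays and between 109 and 115 in wt arrays, below background on all 6, so no level or difference was measurable for it.

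Lef1, the DNA-binding partner of β-catenin, was the member with the largest positive difference. It read 394, 469 and 359 in Msi1 KO arrays and 368, 362 and 421 in wt arrays, a log2 difference of 0.08 ± 0.13 (SE, 95% interval -0.21 to 0.38) with overlap in both directions. The value was -0.03 without Msi1 KO replicate 2, the array with the highest Lef1. Lef1 is also a gene of T cells, and this array had the highest summed level of T and NK cell markers. That sum, over 18 measured markers, lay between 3385 and 4347 in Msi1 KO arrays and between 2758 and 3400 in wt arrays, with overlap. The other arrays did not share this order, with a sum of 4037 where Lef1 read 394 (Msi1 KO replicate 1). In wt replicate 3, where Lef1 read 421, the sum was 3344. Means were higher in Msi1 KO arrays for 17 of the 18 markers, 6 with an unadjusted limma p under 0.05 (1.61% of all genes in that direction) and 5 without overlap (4.0% of all genes). Cd247, Cd27, Cd28, Ncr1 and Gzma were below background on all 6 arrays, and the part of T cells in the Lef1 value was not tested.

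**Figure D2:**
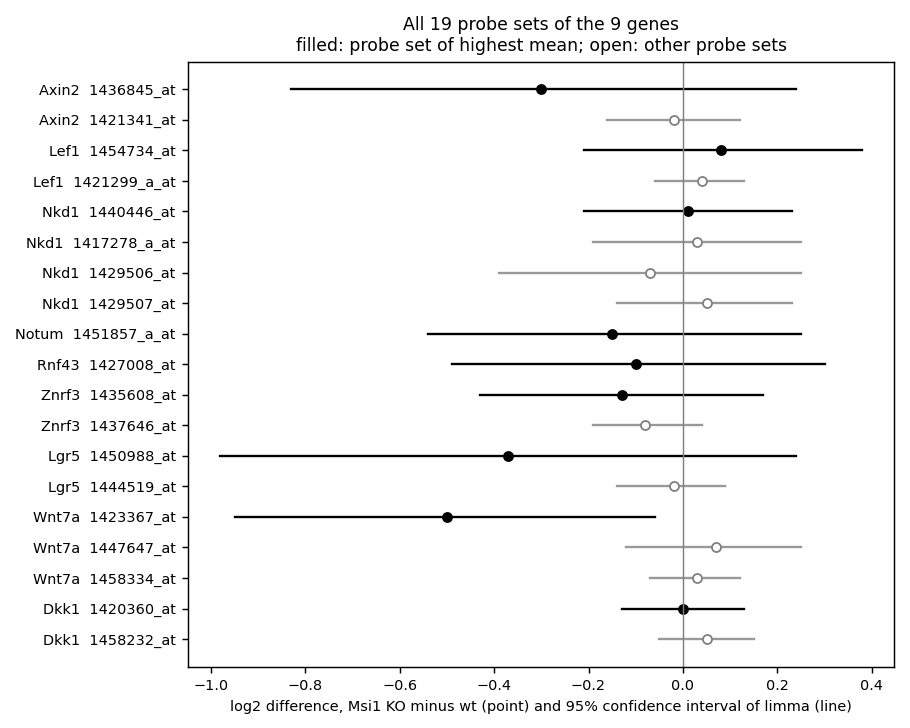
Log2 difference (x axis, Msi1 KO minus wt) and 95% confidence interval for all 19 probe sets of the 9 genes, with the probe set of highest mean filled and the others open. The interval of Wnt7a probe set 1423367_at, -0.95 to -0.06, leaves out 0 before adjustment over all probe sets, and its other probe sets lie at 0.07 and 0.03.

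The arrays at the extremes recurred among the 9 genes. Wt replicate 1 was the highest array for 4 of them and the lowest for 0, and Msi1 KO replicate 3 was the lowest for 5. The mean centred log2 level over the 9 genes was -0.04, -0.04 and -0.17 in Msi1 KO arrays and 0.23, 0.05 and -0.04 in wt arrays. The genotypes overlapped on this level, only narrowly, at wt replicate 3. The summed intensity of the 9 genes, in which bright genes weigh more, lay between 2760 and 2988 in Msi1 KO arrays. In wt arrays it lay between 3015 and 3635, without overlap but only just above the highest Msi1 KO sum. This sum includes Wnt7a, the brightest of the 9 genes in wt arrays and the only gene among them without overlap. The sum was not taken without Wnt7a, so the separation is not shown for the other genes. Without wt replicate 1 the median difference of the 9 genes was -0.02, and 5 of the 9 had a lower mean in Msi1 KO arrays.

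Lists of other gene groups were read on the same arrays, and 0 of their genes had an adjusted p under 0.05 (limma). Mitosis genes had higher means in Msi1 KO arrays for 15 of 15 measured members, with a summed level between 6569 and 9425 in Msi1 KO and between 3672 and 6294 in wt arrays, lowest in wt replicate 1. Of the 15, 14 had an unadjusted limma p under 0.05, against 1.61% of all genes in that direction, and 11 did not overlap, against 4.0%. Acinar markers, which are mostly pancreatic digestive enzymes, had lower means for 14 of 14, with sums between 15682 and 47460 in Msi1 KO and between 47790 and 78927 in wt arrays. Of the 14, 13 had an unadjusted limma p under 0.05, against 1.85% of all genes in that direction, and 3 did not overlap, against 4.28%. Ductal and tumour epithelial markers were above background on all arrays for 13 of 13, with higher means in Msi1 KO arrays for 6 and lower for 7, and sums between 58203 and 89756 in Msi1 KO and between 67093 and 78792 in wt arrays. Fibroblast markers had higher means for 7 of 12, macrophage markers for 8 of 12, neutrophil markers for 5 of 9, B cell markers for 8 of 9, endothelial markers for 9 of 10, islet markers for 2 of 8 and adipocyte markers for 0 of 6. The part of cell division or cell makeup in the Wnt7a, Lgr5 and Axin2 values was not tested, and in tumour RNA fewer cells of a type and less RNA per cell cannot be told apart.

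**Figure D3:**
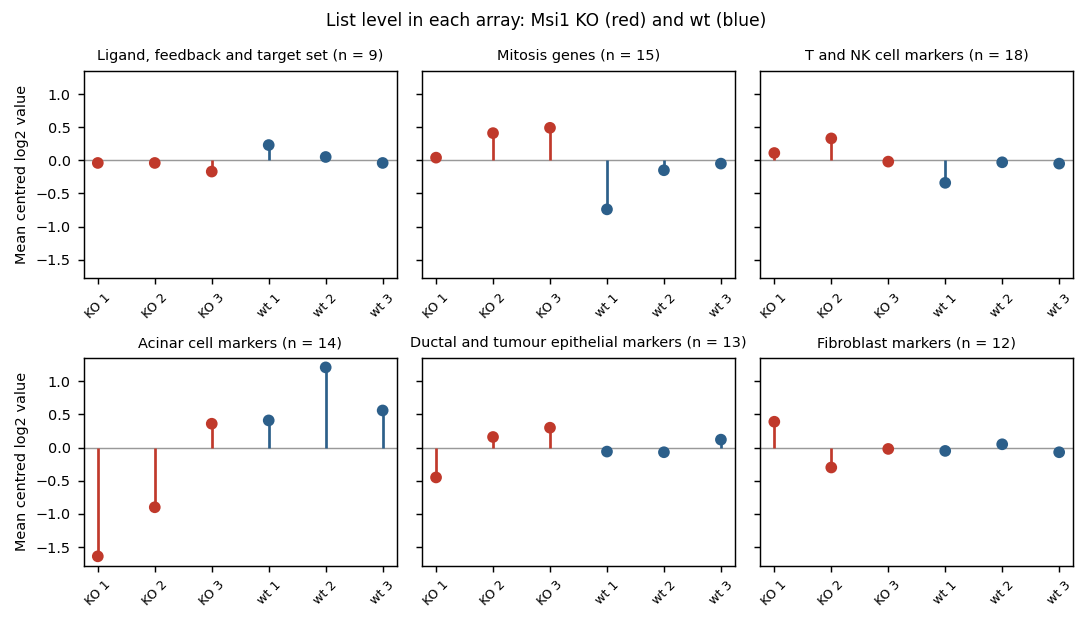
Level of 6 gene lists in each array (y axis, mean over the list of log2 values centred on each gene's mean over the 6 arrays), Msi1 KO in red and wt in blue. The 9 Wnt genes span -0.17 to 0.23 and overlap between genotypes, while mitosis genes, T and NK cell markers and acinar markers do not overlap, those of T and NK cells only narrowly.

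The rest of the pathway was read from 8 lists of ligands, secretion factors, receptors, R-spondins, inhibitors, destruction complex, nuclear factors and further target genes. With the 9 genes they held 114 measured genes, of which 0 passed an adjusted p under 0.05 (limma) and 5 had an unadjusted p under 0.05, all lower in Msi1 KO arrays (Wnt7a, Fzd3, Tpbg, Ctnnbip1 and Prox1, the last below background throughout). Means were lower in Msi1 KO arrays for 71 of the 114, or 62.3%, against 49.7% of all genes, and the median log2 difference was -0.04. The genotypes did not overlap for 7 genes, or 6.14%, all with Msi1 KO below wt, against 4.28% of all genes in that direction. In the opposite direction there were 0, against 4.0% of all genes. Without wt replicate 1 the genes with lower means were 67 of the 114, or 58.8%, against 47% of all genes. Those without overlap were then 8 with Msi1 KO below (7.02%, against 7.03% of all genes) and 4 with Msi1 KO above, a direction found for 8.07% of all genes. This was the lowest share below among the fits without 1 array. The highest was 17.5% without Msi1 KO replicate 3, against 9.25% of all genes, with 1 gene above, a direction found for 9.28% of all genes. Without the 9 genes, 64 of the remaining 105, or 61.0%, had lower means. The 7 genes without overlap were Wnt7a, the receptor gene Fzd3, the inhibitor genes Sfrp5 and Tpbg, the nuclear factor genes Tcf7l1 and Ctnnbip1, and the target gene Sp5.

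Among ligands, 9 of the 19 were below background on all 6 arrays, and 9 were above it on all 6. Wnt7b, the closest paralog of Wnt7a, read 764, 476 and 1384 in Msi1 KO arrays and 780, 827 and 807 in wt arrays, a log2 difference of -0.02 ± 0.34 (SE). As for Wnt7a, the wt arrays lay close together and Msi1 KO replicate 2 was lowest, but Msi1 KO replicate 3 was the highest of all 6 arrays. Wnt4 read 529, 798 and 558 in Msi1 KO arrays and 1588, 540 and 519 in wt arrays, with wt replicate 1 alone far above the rest. The log2 difference of Wnt4 was -0.31 with all arrays and 0.22 without wt replicate 1. Of the secretion factors, Porcn, the enzyme that attaches the lipid to Wnt proteins, differed by -0.29 ± 0.38 (0.14 without Msi1 KO replicate 1 and -0.05 without wt replicate 1) and Wls, their carrier to the cell surface, by -0.04 ± 0.21 (SE).

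Among 16 receptor genes Fzd3, which encodes a Frizzled receptor, read 249, 284 and 285 in Msi1 KO arrays and 363, 339 and 329 in wt arrays. All Msi1 KO arrays were below all wt arrays, with a log2 difference of -0.33 ± 0.09 (SE) and an adjusted limma p of 0.9997. Fzd1, another Frizzled gene, differed by -0.11 ± 0.29. The R-spondin receptor genes Lgr4 and Lgr6 differed by 0.08 ± 0.21 and -0.08 ± 0.24, and Rspo3 and Rspo4 were below background on all 6 arrays.

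Of 15 secreted and surface inhibitors 9 had lower means in Msi1 KO arrays. Tpbg, a membrane glycoprotein that inhibits Wnt signalling in zebrafish, read 441, 397 and 411 in Msi1 KO arrays and 620, 534 and 515 in wt arrays, a log2 difference of -0.41 ± 0.11 (SE), with a limma adjusted p of 0.9997. Its arrays did not overlap between genotypes and were tight within each. Sfrp1, a secreted Frizzled-related protein that binds Wnt ligands, read 6534, 4092 and 5306 in Msi1 KO arrays and 3033, 5715 and 1301 in wt arrays, a difference of 0.88 ± 0.48 with overlap at wt replicate 2. It was 1.39 without that array and 0.32 without wt replicate 3. Sfrp4 and Frzb, of the same family, differed by 0.45 ± 0.23 and -0.23 ± 0.11, and Sfrp5 by -0.15 ± 0.08 without overlap. Sfrp4 read 252, 300 and 363 in Msi1 KO arrays and 153, 269 and 261 in wt arrays. Its value in wt replicate 1 was below the background of that array, 163.0. Sfrp5 was close to background (163.0 to 191.8), at 206, 206 and 200 in Msi1 KO and 248, 216 and 217 in wt arrays.

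Of 19 genes of the destruction complex and Dishevelled, 14 had lower means in Msi1 KO arrays, with a median log2 difference of -0.07. Ctnnb1, which encodes β-catenin, read 9921, 9629 and 9984 in Msi1 KO arrays and 10534, 9795 and 10148 in wt arrays, a difference of -0.04 ± 0.06 (SE). Its mRNA level does not report the amount of β-catenin protein, which the destruction complex sets. Among 15 nuclear factor genes, Ctnnbip1, an inhibitor that keeps β-catenin from TCF factors, differed by -0.27 ± 0.10 and Tcf7l1, a TCF that mostly represses, by -0.33 ± 0.17. Both were below the wt range in all 3 Msi1 KO arrays, those of Tcf7l1 only just below wt replicate 3. Without wt replicate 1 the difference of Tcf7l1 was -0.14.

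Of 22 further target genes, 11 had lower and 11 higher means in Msi1 KO arrays, with a median log2 difference of -0.01. Sp5, a zinc finger factor gene induced by β-catenin, read 190, 181 and 187 in Msi1 KO arrays and 192, 195 and 216 in wt arrays, a difference of -0.11 ± 0.07 (SE) close to background, with Msi1 KO replicate 1 at 190 below its background of 191.8. Ascl2, a stem cell factor gene of the intestine, and Bmp4 differed by 0.16 ± 0.12 and -0.34 ± 0.18. Cd44, a surface receptor for hyaluronan, and Sox4, a transcription factor, differed by -0.05 ± 0.08 and -0.12 ± 0.11. None of these passed an adjusted p under 0.05.

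**Figure D4:**
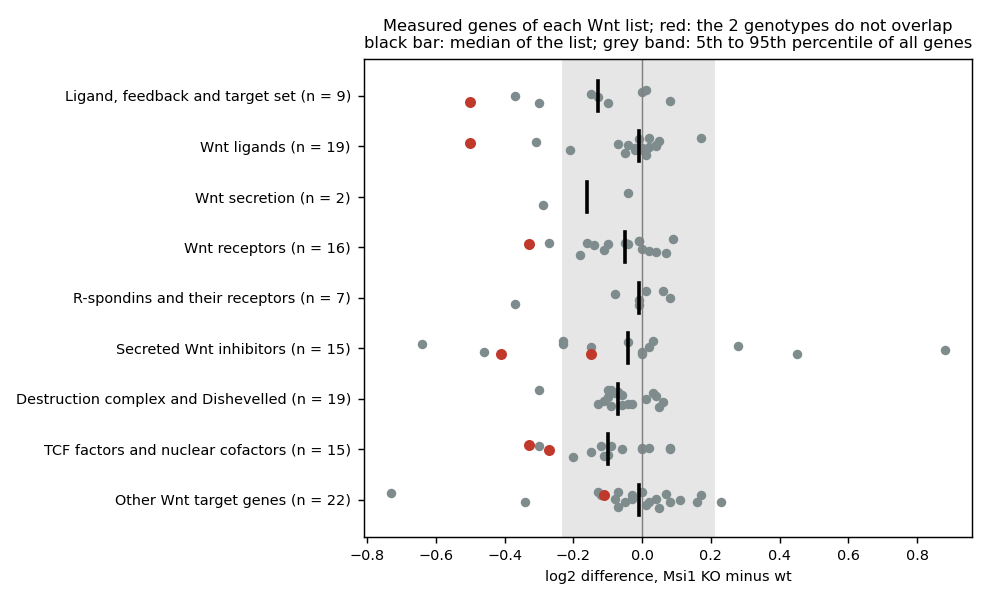
Log2 difference (x axis, Msi1 KO minus wt) of every measured gene of the set of 9 and of 8 pathway lists, with the list median as a black bar, genes whose genotypes do not overlap in red, and the 5th to 95th percentile of all genes, -0.23 to 0.21, as a grey band. List medians run from -0.16 for the 2 secretion factors to -0.01, and all red points are below 0.

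Leaving out single arrays moved most of the 9 genes by more than 1.5 times. The log2 difference ran from -0.48 to -0.07 for Axin2, from -0.57 to -0.10 for Lgr5 and from -0.70 to -0.31 for Wnt7a. These 3 genes and Znrf3, at -0.21 to -0.02, stayed below 0 whichever of the 6 arrays was left out. Lef1, Nkd1, Notum, Rnf43 and Dkk1 had both signs.

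**Figure D5:**
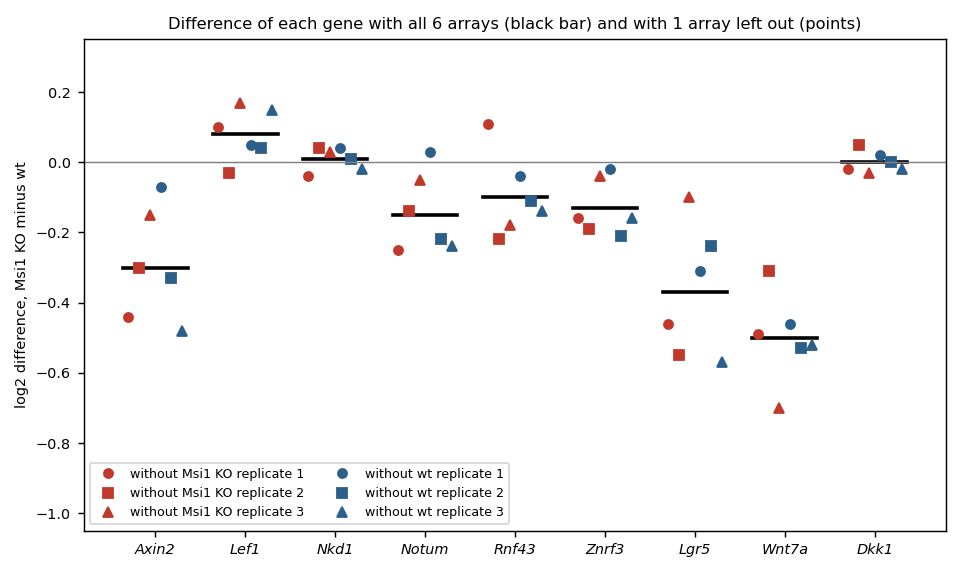
Log2 difference (y axis, Msi1 KO minus wt) of the 9 genes with all 6 arrays (black bar) and with 1 array left out (points, red for a Msi1 KO array and blue for a wt array). Wnt7a stays between -0.70 and -0.31, and Axin2 comes nearest to 0 without wt replicate 1, at -0.07.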

How the data were processed

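From each of 6 tumour samples 6 ug of total RNA was labelled with biotin by the Affymetrix protocol, per the labels. The authors deposited 1 table of intensity values per probe set, made with GCRMA per the submitters' processing notes (version, settings and any later rescaling are not given in the sources used here). The deposited intensities are linear, from 51.2 to 20365, with medians between 159.2 and 164.3. The number of arrays limits the precision.

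Groups and replicate numbers came from the labels. Of 45101 probe sets, 64 controls were left out and 45037 tested. Of these, 34945 had 1 gene symbol, 932 several and 9160 none, from the platform annotation, with symbols updated by Entrez ID through RefSeq (GRCm38.p6; 34741 matched). The log2(intensity + 1) values went into limma 3.58.1 in R 4.3.3 (eBayes, trend = TRUE, genotype as the only term), adjusted by Benjamini-Hochberg at 0.05 over all probe sets. The fit was checked on simulated data of 45037 probe sets, 100 with a log2 change of 1 and 100 with 2. It called 86 and 98 of them, with 15 false calls. The changed probe sets were drawn at random, and the noise was normal and independent between probe sets, at the spread of the limma fit. Effects shared by the probe sets of an array were left out. The check thus covers the code and does not give the share of changes that would be found in these tumours. No filter on low values was used. SD is over arrays and SE is limma's moderated standard error.

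The 10 genes and all lists were chosen with earlier results of these data known. Named beside the 10 genes were, per list, up to 4 genes of smallest unadjusted p and the 2 of highest mean, the 5 genes nearest to the member of widest range, and Msi1. Xist, Mmp7 and the genes in the other observations were named after their values were seen, as were genes named only for lying below background. Alternatives were a pseudocount of 16, filters at a mean log2 of 7 and 8, no trend, 3 normalizations, array weights, a block for the replicate number, leaving out single arrays, other probe set rules and a threshold of 0.1.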

Additional observations from a re-analysis of the deposited data

How the results depend on the processing

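The count of the 9 measured genes past the threshold was 0 under every alternative listed, and with the threshold at 0.1. The count over all probe sets was 0 except without Msi1 KO replicate 1, where it was 1 (Ighm, an immunoglobulin heavy chain gene named for this, 1.89 on the log2 scale, with a limma adjusted p of 0.0426), a range of 0 to 1 over the fits that left out 1 array. The median difference of the 9 genes ran from -0.21 to -0.02 over those fits, the number with a higher mean in Msi1 KO arrays from 1 to 4 (4 without wt replicate 1 and 1 without wt replicate 3, against 2 with all arrays) and the number without overlap from 1 to 2. Of the 114 pathway genes between 67 and 78 had lower means over those fits, and 0 passed the threshold under any alternative. Signs turned for 5 genes. With 1 array left out, Lef1 ran from -0.03 to 0.17, Nkd1 from -0.04 to 0.04, Notum from -0.25 to 0.03, Rnf43 from -0.22 to 0.11 and Dkk1 from -0.03 to 0.05. With array weights Nkd1, Rnf43 and Dkk1 were -0.01, 0.06 and 0.01. Dkk1 was 0.00 with median centring and 0.03 with probe sets averaged per gene, and with the probe set of widest range Nkd1 was -0.07 and Dkk1 0.05. The cause was not tested. With probe sets averaged per gene Axin2, Lgr5 and Wnt7a were -0.16, -0.20 and -0.14. The filter at 8 left out Rnf43 and Dkk1, and the one at 7 left out Dkk1.

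The replicate numbers of the labels were also fitted as a block. Same-numbered Msi1 KO and wt arrays had correlations of their deviations from the group means of 0.17, -0.09 and 0.28 over all probe sets, not every one over 0.1, and no label says what a number marks, so the numbers were not taken as pairs. With the replicate block 2120 probe sets had an unadjusted p under 0.05, against 1355 without it, and 0 had an adjusted p under 0.05. Among the 9 genes the unadjusted limma p was 0.00813 for Lgr5, 0.0198 for Axin2 and 0.0276 for Wnt7a with the block. Each had an adjusted p of 0.9797. Lgr5 and Axin2 were under an unadjusted 0.05 with the block only. For Wnt7a the unadjusted limma p rose to 0.0566 once arrays were weighted and to 0.114 for the mean over its probe sets. Leaving out 1 array gave 0.00228 without Msi1 KO replicate 3 and between 0.0581 and 0.0876 without any other array. Under the remaining alternatives Wnt7a stayed under 0.05. As a hint from the data only, replicate 1 and replicate 3 of Msi1 KO correlated best with the wt array of the same number, and replicate 2 did not. Array signal near background limits, among others, Dkk1, Rnf43, Sp5 and Sfrp5.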

Other observations

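Several Wnt pathway genes had 1 wt array far above the other 5, and it was wt replicate 1 each time. Wif1, a secreted inhibitor that binds Wnt ligands, read 103, 261 and 131 in Msi1 KO arrays and 570, 132 and 180 in wt arrays. Dkk3, a secreted glycoprotein of the Dickkopf family, read 811, 543 and 602 in Msi1 KO arrays and 1654, 659 and 633 in wt arrays. Mmp7, a matrix metalloproteinase of tumour epithelium and a β-catenin target, read 5339, 3231 and 2031 in Msi1 KO arrays and 11795, 5704 and 2369 in wt arrays. The genotypes overlapped for these 3 genes, with log2 differences of -0.64 ± 0.56, -0.46 ± 0.37 and -0.73 ± 0.58 (SE). Without wt replicate 1 they were -0.01 for Wif1, -0.01 for Dkk3 and -0.17 for Mmp7. Axin2 and Notum were also highest in wt replicate 1.

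Within the Msi1 KO arrays, replicate 2 had the lowest Wnt7a and Wnt7b and also the lowest Cldn4, a tight junction gene of ductal epithelium. Cldn4 read 4187, 1419 and 3730 in Msi1 KO arrays and 4623, 3924 and 4532 in wt arrays. Its log2 difference was -0.63 ± 0.38 (SE) with overlap, and -0.14 without Msi1 KO replicate 2. The list of 13 ductal and tumour epithelial markers as a whole was not low in this array. Its mean centred log2 level was 0.16 in Msi1 KO replicate 2, against -0.45 in replicate 1 and 0.30 in replicate 3 of Msi1 KO.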
